A study of Mus musculus with 6 samples.

Results

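The 10 genes described here are ligands and receptors of the tumour necrosis factor (TNF) family with the adaptor and the inhibitor that sit behind the death receptors: Tnf, Tnfsf10, Tnfsf9, Tnfsf13b, Tnfrsf1b, Tnfrsf1a, Tnfrsf10b, Fas, Fadd and Cflar. They were taken by symbol, as the rows of the count table whose Ensembl ID maps to these names, and each matched 1 row, giving 10 genes of 55359 in the table. All 10 passed the filter on low counts and were tested, Tnfsf10 only through its mtDNA libraries. Their RNA was measured in cultures of mouse myeloid-derived suppressor cells (MDSCs), immature cells of the myeloid lineage that dampen T cell activity. Bone marrow of C57BL/6 mice was cultured for 4 days with the growth factors GM-CSF and IL-6 at 40 ng/ml each, and the cells of the polymorphonuclear kind (PMN-MDSCs) were then isolated with an MDSC kit and re-seeded. The mtDNA group had been transfected with mitochondrial DNA at 250 ng/ml by a lipid reagent for 12 h, and the blank group had not. Each group had 3 libraries. The labels give no genetic change in either group. Whether the blank cells were given the lipid reagent is not stated, and there was no library given another DNA, so effects of mtDNA, of DNA in general and of the reagent cannot be told apart. Nor do they say that libraries of a group came from separate animals or cultures, so the p-values measure only the spread among the 6 libraries, which may be technical.

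TNF family ligands are made as membrane proteins and act on neighbouring cells or, once cut from the surface, in soluble form. Their receptors fall into those with a cytoplasmic death domain, which can assemble the adaptor FADD and caspase 8 into a complex that kills the cell, and those without it, which recruit TRAF proteins and turn on NF-kB and MAP kinases. FLIP, the product of Cflar, resembles caspase 8 and holds that complex in check. In myeloid cells TNF is a main inflammatory product, and the balance between survival and death signals from its receptors is known to affect how long suppressor cells persist.

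Library totals ran between 4144481 and 4911103 counts in the mtDNA group and between 4018360 and 4796800 in the blank group, so a single read was worth 0.2 to 0.255 CPM (counts per 1000000 reads of the library, scaled by TMM factors). The labelled cell type was checked on marker genes. S100a8 and S100a9, calcium-binding proteins of neutrophils and monocytes, were abundant, but Ly6g, the surface marker that defines the polymorphonuclear kind, had 78 reads in the mtDNA libraries together and 65 in the blank ones. Csf1r, the monocyte and macrophage growth factor receptor, had 20650 reads in the mtDNA libraries and 19119 in the blank ones. Other genes of the neutrophil marker list were abundant too. Mpo had 5871 reads in the mtDNA libraries and 5831 in the blank ones, Ltf 4894 and 4868, and Csf3r 4198 and 3832. Of that list only Retnlg, at 40 reads in the mtDNA libraries and 46 in the blank ones, had fewer reads than Ly6g. Because the markers were mixed, the cultures are called MDSC cultures below. The summed level of 10 monocyte and macrophage markers was 4533 to 4823 CPM in mtDNA libraries and 3554 to 3684 CPM in blank libraries, and 6 of the 10 passed the test as higher (Ccr2, Csf1r, Fcgr1, Mertk, Cd68 and Ly6c2, the last with an uncertain count because of its close copy Ly6c1). The call of Csf1r was slight, at log2 0.12 (edgeR adjusted p = 0.0436). It held in 3 of 14 alternatives, and with library totals as the only scaling Csf1r stood at 0.005 (adjusted p = 0.935). The sum of 10 neutrophil markers was 4770 to 5191 CPM in mtDNA libraries and 4488 to 4873 CPM in blank libraries. Among 5 stromal and endothelial markers the sum was 93.7 to 104 CPM in mtDNA libraries and 45.7 to 57.0 CPM in blank libraries. That list's Kdr had 805 reads in the mtDNA libraries and 154 in the blank ones, and its Cdh5, a defining endothelial gene, had 10 reads in the mtDNA libraries and 5 in the blank ones. The sum of 8 dendritic cell markers was 344 to 350.2 CPM in mtDNA libraries and 311 to 326 CPM in blank libraries. Most of that sum was Ccr7, at 306 CPM in the mtDNA group and 277 CPM in the blank group (edgeR adjusted p = 0.0572). Of the list's 5 tested genes none was called in either direction. The sum of 6 mast cell, basophil and eosinophil markers was 194 to 214 CPM in mtDNA libraries and 172 to 188 CPM in blank libraries, with Mcpt8, a basophil protease gene, called higher (edgeR adjusted p = 0.0107). In such bulk libraries fewer cells of a type and less RNA per cell cannot be told apart, and the part of these markers in the results that follow was not tested. The natural killer cell genes Ncr1, Gzma and Eomes had no read in any library. On the second principal component of the tested genes, which held 8.97% of the variance, mtDNA library 1 stood apart from the other mtDNA libraries; the calls of the 10 genes were the same without it.

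Promoter sequences were held for 8 of the 10 genes, Tnfsf9 and Tnfrsf10b being the others, and 4 of them are printed to show what lies upstream of a gene that rose moderately (Tnf), of the gene with the highest fold change (Tnfsf10), of the most abundant member (Tnfrsf1b) and of a gene that did not pass the test (Fas). They come from RefSeq on build GRCm38.p6, end at the base before the start or before the first annotated exon base, and read 5′ to 3′ on the strand of the gene. The counts themselves were made on GRCm39. Capitals mark matches to GAAANNGAA, a motif of interferon regulatory factors (IRFs), or to TTCNNNGAA, a motif of STAT proteins. Tnf lies at chr17:35202008-35202257 on the minus strand, Tnfsf10 at chr3:27316827-27317027 on the plus strand, Tnfrsf1b at chr4:145246871-145247120 on the minus strand and Fas at chr19:34290409-34290658 on the plus strand.
Tnf: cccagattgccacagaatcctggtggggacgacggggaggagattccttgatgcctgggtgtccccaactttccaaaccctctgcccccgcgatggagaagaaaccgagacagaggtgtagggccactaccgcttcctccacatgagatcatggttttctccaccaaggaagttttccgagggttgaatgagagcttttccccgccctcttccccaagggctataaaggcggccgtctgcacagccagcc
Tnfsf10: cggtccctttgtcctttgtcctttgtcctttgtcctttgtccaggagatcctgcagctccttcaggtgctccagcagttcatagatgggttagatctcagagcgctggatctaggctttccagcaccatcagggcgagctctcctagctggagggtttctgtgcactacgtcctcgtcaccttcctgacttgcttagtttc
Tnfrsf1b: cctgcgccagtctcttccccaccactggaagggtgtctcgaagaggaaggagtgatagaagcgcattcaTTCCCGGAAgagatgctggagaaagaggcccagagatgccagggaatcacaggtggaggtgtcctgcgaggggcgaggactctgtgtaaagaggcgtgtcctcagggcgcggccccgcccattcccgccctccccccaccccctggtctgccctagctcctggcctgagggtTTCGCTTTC
Fas: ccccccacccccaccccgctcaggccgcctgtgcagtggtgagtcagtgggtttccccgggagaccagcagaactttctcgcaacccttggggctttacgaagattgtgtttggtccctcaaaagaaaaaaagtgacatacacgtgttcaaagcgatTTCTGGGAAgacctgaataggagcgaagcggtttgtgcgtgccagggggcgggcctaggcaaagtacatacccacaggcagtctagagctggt

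Both strands were searched in windows of 300 bases, 250 before and 50 after the start, and positions count from the start. The Tnfrsf1b promoter held a STAT match at -181 to -173 and, on the other strand, an IRF match at -9 to -1. Fas held a STAT match at -93 to -85. Among the promoters not printed, Tnfrsf1a held a STAT match at -244 to -236, Cflar an IRF match at 8 to 16 after its start, and a second start of Tnfsf13b an IRF match at -16 to -8. Of 32851 mouse promoters of that length, 8.6% held the IRF motif, 8.3% the STAT motif and 4.4% GGGNNTTTC, a motif of NF-kB that none of the 8 genes matched. The letters of these motifs were not found in the windows of Tnf, Tnfsf10 or Fadd, which says only that these letters are not there.

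Of the ligands, Tnf and Tnfsf10 rose in the mtDNA libraries, the TRAIL gene Tnfsf10 by far more, while Tnfsf9 and Tnfsf13b did not pass the test. Tnf encodes TNF itself. It was at 121, 118 and 121 CPM in mtDNA libraries 1, 2 and 3, against 86.1, 81.5 and 90.2 CPM in blank libraries 1, 2 and 3. Every mtDNA library was above every blank library, and the 3 mtDNA values lay closer together than the 3 blank ones. The mean was 120.2 ± 1.86 CPM in the mtDNA group and 85.9 ± 4.36 CPM in the blank group (SD, n = 3 each), a difference of 0.49 ± 0.064 on the log2 scale (SE, edgeR adjusted p = 5.72e-06), or 1.40-fold with a 95% interval of 1.28 to 1.54.

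Tnfsf10 encodes TRAIL, a ligand that can kill cells through death receptors. Its read counts were 60, 52 and 68 in mtDNA libraries 1, 2 and 3, against 5, 3 and 5 in blank libraries 1, 2 and 3. The groups were far apart, and the blank counts were so few that blank library 2 stood at the floor of 3 counts. In scaled units it was at 15.3, 11.1 and 14.3 CPM in the mtDNA libraries and at 1.17, 0.599 and 1.19 CPM in the blank libraries. The log2 fold change was 3.77 ± 0.30 (SE, n = 3 each, edgeR adjusted p = 1.53e-09), which is 13.6-fold with a 95% interval of 8.90 to 20.8. It ranked 32nd of the 11190 genes tested, so its rise was among the larger ones, at a level that was still low. The gene passed the default filter only through the mtDNA libraries, where it was high, so its place among the tested genes depended on that group. Under a filter of 1 CPM in all 6 libraries the gene was not tested.

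Tnfsf9 encodes the ligand of the T cell co-stimulatory receptor CD137. It had 22, 18 and 21 reads in mtDNA libraries 1, 2 and 3, against 21, 48 and 26 reads in blank libraries 1, 2 and 3. The groups overlapped, and blank library 2 stood above all the other libraries. The log2 difference was -0.62 ± 0.27 (SE, edgeR adjusted p = 0.121, unadjusted p = 0.0311), with a 95% interval of -1.17 to -0.06. It passed the threshold with library totals as the only scaling (log2 -0.735, edgeR adjusted p = 0.042) and without blank library 1 (-0.80, 0.0484), and was -0.28 without blank library 2 (adjusted p = 0.605). Of its exon bases 14.9% are shared with Gm11110, a noncoding gene on the opposite strand with 44 reads in the mtDNA libraries and 43 in the blank ones. The strand setting of the counting is not given in the sources used here, so the count of Tnfsf9 is uncertain to that extent.

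Tnfsf13b encodes BAFF, a survival factor for B cells that myeloid cells release. It had 8, 15 and 19 reads in mtDNA libraries 1, 2 and 3, against 8, 12 and 15 in blank libraries 1, 2 and 3. These groups overlapped almost fully. The log2 difference was 0.27 ± 0.35 (edgeR adjusted p = 0.657), and its 95% interval of -0.45 to 0.99 covers both a fall and a near doubling, so a change of that size was not detectable at this depth.

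The receptors of TNF rose by moderate amounts, whereas the death receptor of TRAIL and Fas did not pass the test. Tnfrsf1b encodes TNFR2, the TNF receptor that lacks a death domain and is prominent on suppressive myeloid cells and regulatory T cells. It had 1789, 1656 and 1687 CPM in mtDNA libraries 1, 2 and 3, against 1346, 1230.4 and 1218 CPM in blank libraries 1, 2 and 3. The lowest mtDNA library stood above the highest blank library. The log2 fold change was 0.44 ± 0.049 (SE, n = 3 each, edgeR adjusted p = 5.11e-07), or 1.35-fold with a 95% interval of 1.26 to 1.45.

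Tnfrsf1a encodes TNFR1, the TNF receptor with a death domain. It was at 290.6, 276 and 252 CPM in mtDNA libraries 1, 2 and 3, against 229, 226 and 217 CPM in blank libraries 1, 2 and 3. The groups did not overlap, with mtDNA library 3 nearest to the blank libraries. The log2 fold change was 0.28 ± 0.058 (edgeR adjusted p = 0.00122), or 1.22-fold with a 95% interval of 1.12 to 1.32. With library totals as the only scaling it was 0.16 (adjusted p = 0.0339), and the median of all tested genes then stood at -0.13 instead of -0.01.

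Tnfrsf10b encodes the death receptor for TRAIL in the mouse. Its read counts were 30, 45 and 28 in mtDNA libraries 1, 2 and 3, against 46, 45 and 30 in blank libraries 1, 2 and 3. The groups overlapped and the log2 difference was -0.22 ± 0.21, with a 95% interval of -0.66 to 0.23 (edgeR adjusted p = 0.543). Part of its longest transcript, 4.22% of windows of 75 bases, is also found in transcripts of other genes, where reads that map to several places could be lost.

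Fas encodes the receptor of Fas ligand. It was at 50.9, 52.7 and 44.9 CPM in mtDNA libraries 1, 2 and 3, against 46.9, 49.5 and 46.9 CPM in blank libraries 1, 2 and 3. The groups overlapped, with mtDNA library 3 the lowest of all 6. The log2 difference was 0.05 ± 0.087 (edgeR adjusted p = 0.766), with a 95% interval of -0.13 to 0.23, which holds no fold above 1.17. Its sign turned under other scaling, at -0.03 with upper-quartile factors and -0.07 with library totals alone. Fasl, the gene of its ligand, had no read in any of the 6 libraries.

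Behind the receptors, the inhibitor Cflar rose and the adaptor Fadd did not pass the test. Fadd encodes the adaptor that joins death receptors to caspase 8. It was at 18.1, 17.1 and 18.6 CPM in mtDNA libraries 1, 2 and 3, against 19.5, 21.8 and 18.6 CPM in blank libraries 1, 2 and 3. The groups met at mtDNA library 3 and blank library 3, and the log2 difference was -0.16 ± 0.13, with a 95% interval of -0.43 to 0.10 (edgeR adjusted p = 0.438). Some reads of Fadd may be lost, as 5.04% of windows of 75 bases in its longest transcript also occur in transcripts of other genes.

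Cflar encodes FLIP, the inhibitor of caspase 8 at death receptors. It was at 142, 124 and 126 CPM in mtDNA libraries 1, 2 and 3, against 97.6, 80.5 and 80.0 CPM in blank libraries 1, 2 and 3. The groups did not overlap, and library 1 was the highest of its group on both sides. The log2 fold change was 0.60 ± 0.078 (SE, n = 3 each, edgeR adjusted p = 4.69e-06), or 1.51-fold with a 95% interval of 1.35 to 1.69. Of the windows of 75 bases in its longest transcript, 9.62% also occur in transcripts of other genes, so some of its reads may have been dropped or counted elsewhere. The counts do not tell its long and short protein forms apart.

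**Figure D1:**
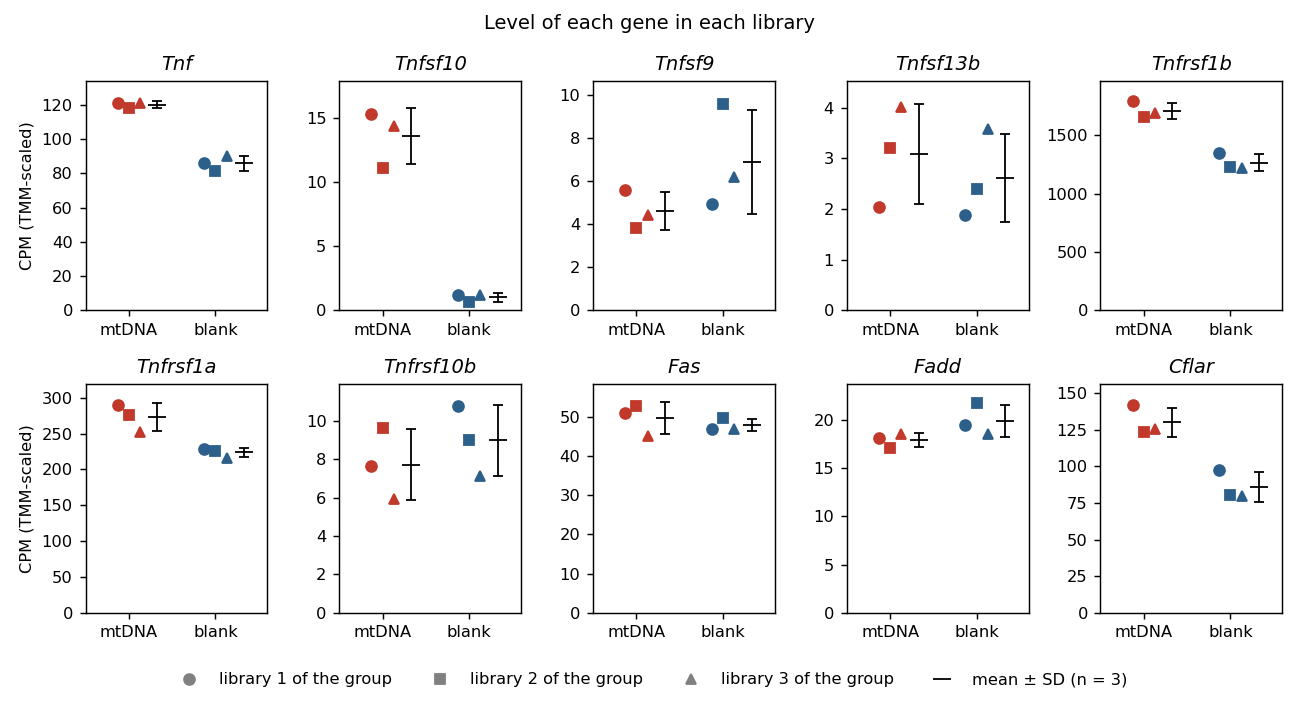
Level of each of the 10 genes in each library, in TMM-scaled CPM on axes that start at 0; symbols are libraries 1, 2 and 3 of the group, and the bar beside them is the mean ± SD (n = 3). The mtDNA libraries stand above all blank libraries for Tnf, Tnfsf10, Tnfrsf1b, Tnfrsf1a and Cflar, and the groups overlap for the other 5.

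**Figure D2:**
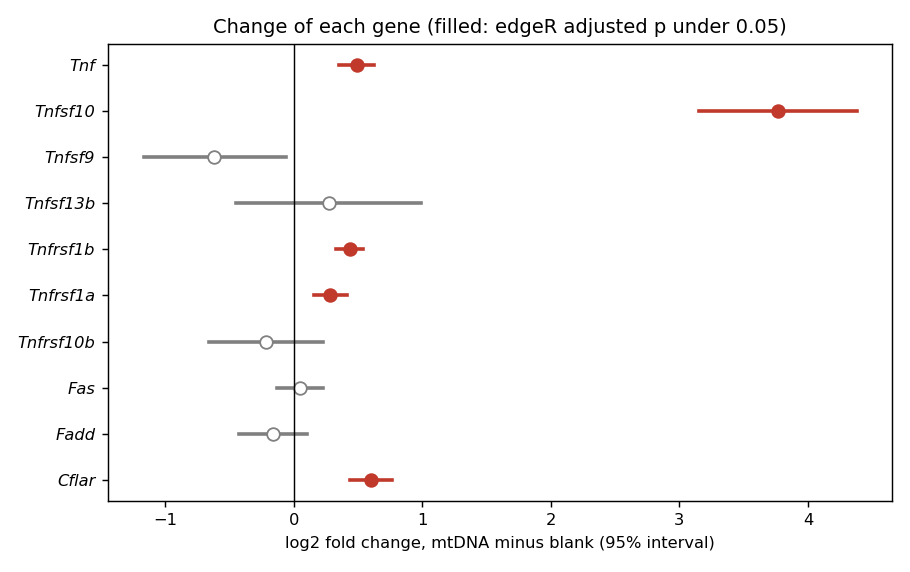
Log2 fold change of each gene, mtDNA minus blank, with its 95% interval from the edgeR fit; filled points have an adjusted p under 0.05. Tnfsf10 lies at 3.77, the other 4 filled points lie between 0.28 and 0.60, and the intervals of Tnfsf13b, Tnfrsf10b, Fas and Fadd span 0.

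Of the 10 genes 5 were called higher in mtDNA, where 11.9% of the 11190 tested genes were. Tnfsf10, 1 of the 5, was among the tested genes only through its mtDNA libraries. None of the 10 was called lower by edgeR, with 1 lower at an unadjusted p under 0.05 (Tnfsf9). DESeq2 called none lower at either p, and limma-voom none after adjustment and 1 before it. Here 5.96% of all tested genes were called lower. In either direction 17.8% of all tested genes were called. The groups of 3 did not overlap, with mtDNA higher, for the same 5 members, where this held for 17.9% of all tested genes. Of all tested genes 15.6% stood lower in mtDNA without overlap, and no member did. The median log2 fold change was 0.28 over the 10 genes and -0.01 over all tested genes. The 10 genes were chosen with earlier results of these data known, so these counts describe them and carry no test. The same 5 members were called by edgeR under each of the 3 other scalings, without a filter, with libraries left out 1 at a time, by DESeq2 and by limma-voom.

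Levels of different genes were compared per kilobase of annotated exon. In mtDNA libraries Tnfrsf1b stood at 448 ± 18.3 CPM per kilobase, Tnfrsf1a at 105 ± 7.54 and Tnf at 73.3 ± 1.13 (SD, n = 3). The receptors of TNF thus headed the order, followed by the ligand, and the same 3 genes led in the blank libraries at 331, 86.4 and 52.4 CPM per kilobase. Fas came next at 24.0 ± 1.98 CPM per kilobase in mtDNA libraries and 23.2 ± 0.737 in blank libraries. Cflar followed at 10.3 ± 0.78 in mtDNA libraries and 6.79 ± 0.791 in blank libraries. Below it, the mtDNA order of the means was Fadd at 4.59, Tnfsf9 at 3.59, Tnfsf10 at 2.58, Tnfrsf10b at 1.42 and Tnfsf13b at 0.449 CPM per kilobase. No neighbours in that order overlapped in the mtDNA libraries. In both groups each of the 4 top genes stood above the next in every library. In the blank libraries Cflar, Tnfsf9 at 5.35 and Fadd at 5.11 CPM per kilobase overlapped with their neighbours, and Tnfsf10 came last at 0.187 CPM per kilobase, below Tnfrsf10b at 1.65 and Tnfsf13b at 0.381. Tnfsf10 was therefore at rank 8 of 10 in mtDNA libraries and at rank 10 in blank libraries. Fadd ranked above Tnfsf9 in mtDNA libraries and below it in blank libraries.

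**Figure D3:**
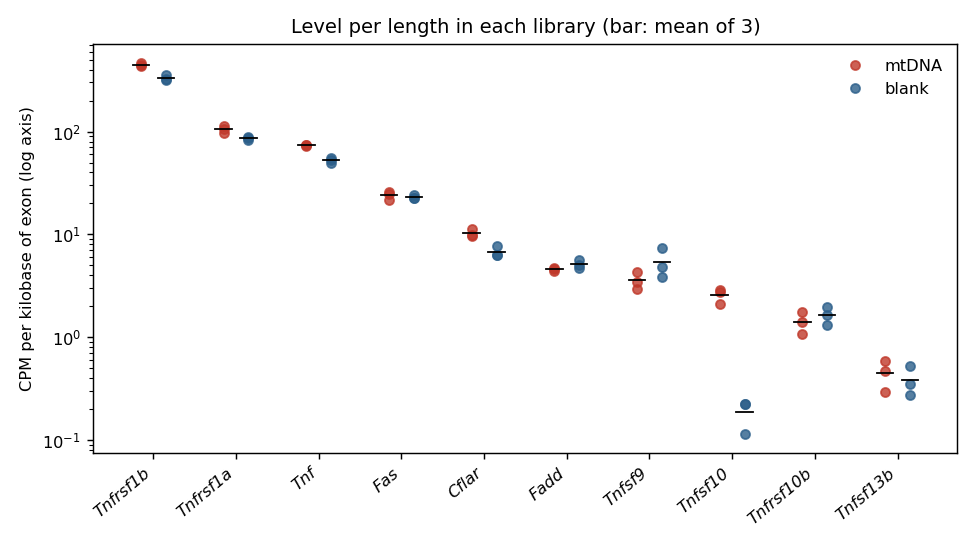
Level of each gene per kilobase of annotated exon in each library (log axis), ordered by the mtDNA mean; the short bars are means of 3 libraries. The genes span 448 CPM per kilobase for Tnfrsf1b to 0.449 for Tnfsf13b in mtDNA libraries, and Tnfsf10 is the gene whose groups lie farthest apart.

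Ratios of 2 genes within a library do not depend on its scaling factor, and 5 were compared, chosen after the values were seen. Tnfrsf1b reads were 6.16, 6.00 and 6.70 times those of Tnfrsf1a in mtDNA libraries 1, 2 and 3, against 5.88, 5.45 and 5.63 times in blank libraries 1, 2 and 3. The ratio of the receptor without a death domain to the one with it was higher in every mtDNA library, by 0.15 on the log2 scale. Cflar reads were 7.83, 7.24 and 6.76 times those of Fadd in the mtDNA libraries, against 5.01, 3.70 and 4.31 times in the blank libraries, a log2 difference of 0.75. Tnfsf10 reads were 2.00, 1.16 and 2.43 times those of Tnfrsf10b in the mtDNA libraries, against 0.109, 0.0667 and 0.167 times in the blank libraries. Reads of Tnfsf10 therefore outnumbered those of this death receptor in every mtDNA library and in no blank library, without regard to length. That did not hold for Tnfrsf23, a mouse decoy receptor gene for TRAIL, with 296, 314 and 351 reads in mtDNA libraries 1, 2 and 3. In blank libraries 1, 2 and 3 Tnfrsf23 had 275, 306 and 253 reads, and it was above Tnfsf10 in every library. Tnfrsf22, another mouse decoy receptor gene for TRAIL, had 10, 28 and 17 reads in mtDNA libraries 1, 2 and 3, below Tnfsf10 in each. In blank libraries 1, 2 and 3 Tnfrsf22 had 24, 12 and 30 reads, above Tnfsf10 in each. The ratio of Fas to Tnfrsf1a was lower in mtDNA libraries, at 0.175, 0.191 and 0.178, against 0.205, 0.219 and 0.216 in blank libraries, a log2 difference of -0.23. Each of these 4 ratios had an exact two-sided permutation p of 0.1, the smallest that 3 libraries against 3 allow, and 0.125 after adjustment over the 5 ratios. The ratio of Cflar to Casp8, the gene of caspase 8, was 0.611, 0.600 and 0.607 in the mtDNA libraries, against 0.629, 0.505 and 0.545 in the blank libraries. Here the groups overlapped (exact permutation p = 0.4). Casp8 rose by log2 0.48 ± 0.061 (edgeR adjusted p = 3.44e-06).

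**Figure D4:**
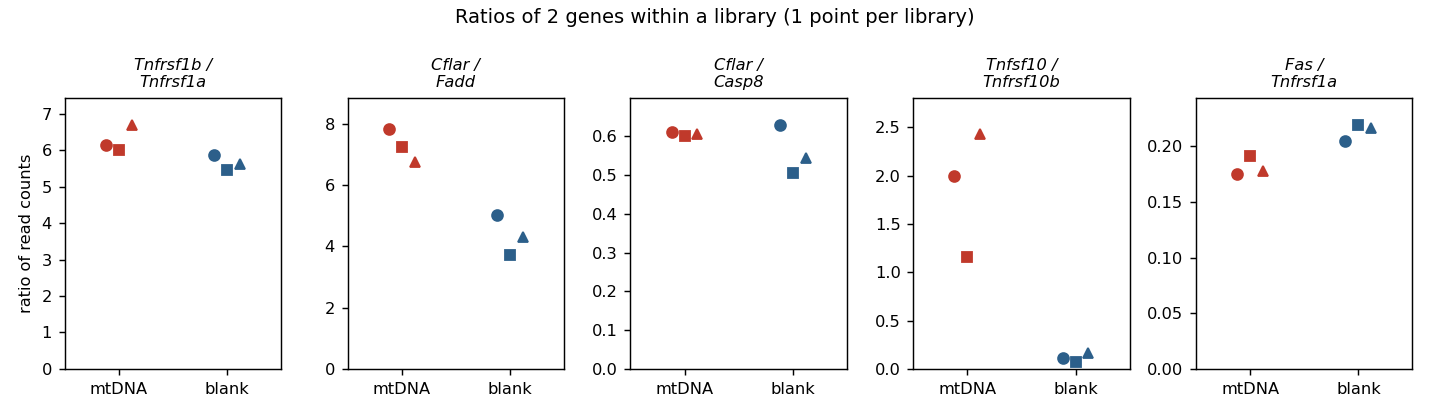
Ratio of read counts of 2 genes within each library, 1 point per library, on axes that start at 0. The mtDNA and blank libraries do not overlap for Tnfrsf1b over Tnfrsf1a, Cflar over Fadd, Tnfsf10 over Tnfrsf10b and Fas over Tnfrsf1a, and overlap for Cflar over Casp8.

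The other genes around these 10 were described by 8 lists of ligands, receptors, signalling proteins and targets, 139 of whose 158 genes were tested. Of the 139 genes 53 (38.1%) were called higher and 3 (2.16%) lower, with a median log2 fold change of 0.15. Of all 11190 tested genes 11.9% were called higher and 5.96% lower, with a median of -0.01. The counts of each list below are to be read beside these shares, and they carry no test. Among 7 tested genes of other TNF superfamily ligands, 2 were higher and 1 was lower, and the list's median was -0.02. Tnfsf15, which encodes TL1A, rose 3.50-fold (log2 1.81 ± 0.31, edgeR adjusted p = 0.000176) to 7.46 CPM in the mtDNA group, against 2.12 CPM in the blank group. Its blank libraries, at 14, 7 and 7 reads, would not have passed the filter on low counts by themselves. Tnfsf8, the CD30 ligand gene, rose 3.09-fold (log2 1.63 ± 0.18, edgeR adjusted p = 5.14e-07). Tnfsf14, which encodes LIGHT, fell, with 79, 132 and 105 reads in mtDNA libraries 1, 2 and 3, against 132, 199 and 146 reads in blank libraries 1, 2 and 3 (log2 -0.58 ± 0.13, edgeR adjusted p = 0.00226). Among ligands beyond Tnf, then, the rises that passed the test were those of Tnfsf10, Tnfsf15 and Tnfsf8, each at a low level. Without passing it, Tnfsf4 stood higher in every mtDNA library (log2 0.38 ± 0.15, edgeR adjusted p = 0.0804). Ltb stood lower in every mtDNA library and did not pass either (log2 -0.18 ± 0.12, edgeR adjusted p = 0.345).

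Of 15 tested genes of other TNF receptor superfamily members, 5 were higher, and the median was 0.03. Cd40, the co-stimulatory receptor of antigen-presenting cells, rose 2.68-fold to 23.4 CPM in the mtDNA group, against 8.54 CPM in the blank group (edgeR adjusted p = 9.29e-07). Tnfrsf14, which encodes the receptor of LIGHT, rose 1.68-fold (log2 0.75 ± 0.15, edgeR adjusted p = 0.000959). The other calls were small: Tnfrsf26 at log2 0.31 was called in 7 of 14 alternatives, Tnfrsf11a at 0.29 in 6 and Tnfrsf23 at 0.22 in 4. Tnfrsf9, the CD137 receptor that binds the product of Tnfsf9, was at 143 CPM in the mtDNA group and 130.2 CPM in the blank group (log2 0.13 ± 0.065, edgeR adjusted p = 0.17). Tnfrsf13b, a receptor for BAFF, was at 79.5 CPM in the mtDNA group and 82.7 CPM in the blank group (log2 -0.06 ± 0.079, edgeR adjusted p = 0.681).

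All 27 genes of the list of the TNF receptor signalling complex were tested, and 9 were higher, with a median of 0.14. Rnf31, the catalytic subunit of the linear ubiquitin ligase, had a log2 fold change of 0.78 ± 0.087 (edgeR adjusted p = 4.97e-07). The kinase gene Tbk1 rose by log2 0.49 ± 0.061 (edgeR adjusted p = 2.94e-06). Birc3, an inhibitor of apoptosis that ubiquitinates RIPK1, rose by 0.35 ± 0.072 (edgeR adjusted p = 0.00124), and the feedback inhibitor Tnfaip3 by 0.31 ± 0.071 (edgeR adjusted p = 0.00351), a call lost with library totals as the only scaling (0.19, adjusted p = 0.0572). The core adaptor Tradd and the kinase gene Ripk1 did not pass the test, at log2 -0.07 ± 0.10 and 0.06 ± 0.063.

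Of 19 genes of the death complex and executioner list, 7 were higher and 1 was lower, with a median of 0.15. Daxx, a nuclear protein first found as a partner of Fas, rose 4.30-fold (log2 2.10 ± 0.096, edgeR adjusted p = 1.48e-13). Mlkl, which permeabilises the membrane in necroptosis, rose 2.93-fold (log2 1.55 ± 0.10, edgeR adjusted p = 6.81e-11). Dffa, the inhibitor of the apoptotic nuclease, was lower at log2 -0.37 ± 0.12 (edgeR adjusted p = 0.0435), a call lost with DESeq2 (adjusted p = 0.207) and without mtDNA library 1, mtDNA library 3, blank library 1 or blank library 2. Of 11 tested genes listed as inhibitors of death 5 were higher, with a median of 0.18. Among them were Naip2 at log2 0.26 ± 0.064 and Bcl2a1b at 0.53 ± 0.11, the latter with an uncertain count because of near-identical copies. Whether Naip2 holds back death in these cells was not tested. The list had 3 higher with upper-quartile factors, with DESeq2 or without blank library 2, and 1 higher and 1 lower with library totals alone. Naip2 lost its call with library totals (0.14, adjusted p = 0.101) and without blank library 2 (adjusted p = 0.051).

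Of 19 tested genes that control TNF message stability or the shedding of ligands, 5 were higher and 1 was lower, with a median of 0.06. Sppl2a, an intramembrane protease that cuts TNF, rose 1.87-fold (log2 0.90 ± 0.06, edgeR adjusted p = 8.23e-11). Zfp36, which binds the Tnf message and hastens its decay, rose by log2 0.34 ± 0.053 (edgeR adjusted p = 5.81e-05). Rhbdf2, the partner that brings the TNF-cutting protease ADAM17 to the cell surface, rose by 0.35 ± 0.064 (edgeR adjusted p = 0.000367), while Adam17 itself was at log2 0.13 ± 0.051 (edgeR adjusted p = 0.083). Khsrp, another decay factor, was lower at -0.19 ± 0.059 (edgeR adjusted p = 0.0256), a call lost with DESeq2 (adjusted p = 0.121) and without mtDNA library 3, blank library 1 or blank library 3.

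Of 21 tested TNF and NF-kB target genes 10 were higher, with a median of 0.22. Cxcl10, a chemokine for T cells that interferons also induce, had 623, 616 and 617 reads in mtDNA libraries 1, 2 and 3, against 13, 16 and 23 reads in blank libraries 1, 2 and 3 (35.9-fold, edgeR adjusted p = 2.08e-16). Ccl2, a monocyte chemokine, rose 3.57-fold (log2 1.84 ± 0.11, edgeR adjusted p = 1.45e-11). Of 20 transcription factors known to act on TNF family genes 10 were higher, with a median of 0.16, among them Irf1, an interferon regulatory factor, at 2.67-fold (edgeR adjusted p = 1.04e-13). With library totals as the only scaling, the counts called higher and lower were 2 and 1 for the other receptors, 5 and 2 for the signalling complex and 5 and 3 for the death complex. They were then 3 and 3 for stability and shedding and 8 and 2 for the transcription factors, and 6 targets were higher. No list was compared with the others by a test.

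**Figure D5:**
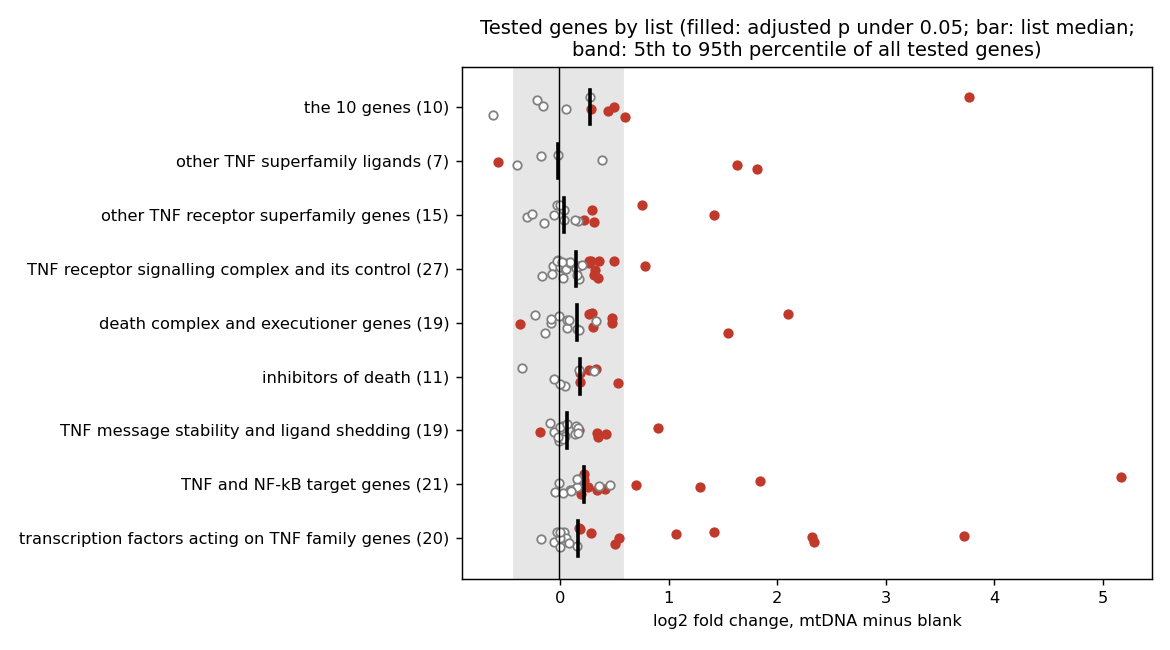
Log2 fold change, mtDNA minus blank, of each tested gene of the 10 genes and the 8 lists (number tested in brackets); filled points have an edgeR adjusted p under 0.05, the black bar is the list's median and the grey band runs between the 5th and 95th percentile of all tested genes, -0.43 and 0.57. The medians lie between -0.02 and 0.28, and Tnfsf10 at 3.77 lies among the farthest points, with Cxcl10 at 5.17.

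The genes whose pattern over the 6 libraries was most like that of Tnf or Tnfsf10 were found among 6972 genes with a mean of at least 20 CPM, by the root mean square difference of centred log2 CPM. For Tnf these were Nono at 0.0294, Cybb at 0.0322 and Rrbp1 at 0.0337. For Tnfsf10 they were Ifi209 at 0.0922, Zbp1 at 0.188 and Ifi47 at 0.197. The nearest genes to Tnf rose by about as much as Tnf (1.38-fold to 1.41-fold), and those nearest to Tnfsf10 rose between 9.05-fold and 11.7-fold. Likeness was measured over the same 6 libraries, so a rise of similar size follows from the choice and is no separate result. The prior count of 2 in these log2 values damps the rise of a gene with few reads. Genes were therefore matched to a smaller rise of Tnfsf10 than its fitted 13.6-fold.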

How the data were processed

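Reads were 75 bases long, single-end, from 6 directional poly(A) libraries (labels' protocols). The authors deposited whole-number counts of reads per gene, without normalization, for 55359 Ensembl IDs. STAR 2.7.10a, FastQC, DESeq2 and build GRCm39 are named in the submitters' processing notes; annotation release and strand setting: not given in the sources used here. Symbols came from GENCODE M21 on GRCm38, which matched 52083 IDs and left 3276 without one. No column lacked a labelled sample. Library totals were 4144481, 4848705 and 4911103 counts (mtDNA 1, 2 and 3) and 4111620, 4796800 and 4018360 (blank 1, 2 and 3). The floor of 3 counts covers counting error only.

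Counts were tested two-sided by edgeR 4.0.16 (R 4.3.3) with its quasi-likelihood method, after default filtering and TMM scaling, and p was adjusted by Benjamini-Hochberg over 11190 genes at a threshold of 0.05. The same functions were tested on simulated data. As alternatives, scaling was by median ratio, upper quartile or library totals, filtering was dropped or required 1 CPM in all 6 libraries, the tool was DESeq2 1.42.0 or limma-voom (limma 3.58.1), a replicate block was added, or a library was left out. Ratios of genes within a library were added after seeing the data. Pairs of libraries of a group differed beyond sampling noise, with a chi-square of 1.54 to 2.28 per degree of freedom, so none was counted as a repeat. Neighbouring title numbers were checked as pairs: deviations from group means correlated at 0.04 in each of the 3. The other pairings of an mtDNA with a blank library were all lower, at -0.05 to 0.01. As the correlations were small, libraries were not treated as paired in the main test.

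The 10 genes, the lists, the tests and the naming rule were chosen with earlier results of these data known. The rule named all 10 genes, from each list up to 2 risen and 2 fallen genes with the smallest p, and 3 genes most like each of Tnf and Tnfsf10 (log2 CPM with a prior count of 2). Of the genes that the rule named, 1 is not reported here. Casp8, Tnfrsf9, Tnfrsf11a, Tnfrsf13b, Tnfrsf22, Tnfrsf23, Tnfrsf26, Tnfaip3, Birc3, Rhbdf2, Adam17, Tradd, Ripk1, Fasl and the markers named were added after their values were seen. Shared sequence was measured in windows of 75 bases along the longest transcript. Promoters are RefSeq's on GRCm38.p6.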

Additional observations from a re-analysis of the deposited data

How the results depend on the processing

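Tnf, Tnfrsf1b, Tnfrsf1a and Cflar were called higher in all 14 alternatives, and Tnfsf10 in the 13 in which it was tested; their log2 fold changes ranged over 0.37 to 0.52 for Tnf, 0.32 to 0.48 for Tnfrsf1b, 0.16 to 0.34 for Tnfrsf1a, 0.48 to 0.70 for Cflar and 3.48 to 3.92 for Tnfsf10. Members called lower numbered 1 with library totals alone (Tnfsf9) and 0 to 1 with a library left out. Scaling moved the split of calls over all genes: 1330 higher and 667 lower became 970 and 1504 with upper-quartile factors (median log2 fold change -0.09) and 861 and 2347 with library totals (median -0.13), while DESeq2 called 967 higher and 217 lower. Genes called lower numbered 409 to 522 with a library left out, 436 without mtDNA library 1 and 409 without blank library 3. For the lists, 53 higher and 3 lower became 36 and 6 with upper-quartile factors, 32 and 13 with library totals and 38 and 1 with DESeq2, and 1 to 3 were lower with a library left out (1 without mtDNA library 3 or blank library 1). Signs turned for Fas (-0.028 with upper-quartile factors, -0.07 with library totals, -0.004 to 0.117 with a library left out, the lowest without mtDNA library 2), Ripk1 (-0.014 with upper-quartile factors, -0.056 with library totals) and Tnfrsf13b (-0.109 to 0.03 with a library left out, the highest without blank library 2), none of them called in any alternative; the cause was not tested. With neighbouring title numbers as a replicate block, 5 members were higher and 0 lower, and 1387 genes were higher and 742 lower; the block changed no member's call. The order of mean levels per length was the same for all 10 genes with longest transcripts, but not which neighbours overlapped. With longest transcripts Tnfsf10 overlapped Tnfsf9 and Tnfrsf10b in the mtDNA libraries. Cflar then no longer overlapped Tnfsf9 in the blank libraries. Depth limits Tnfsf13b, Tnfsf9, Tnfrsf10b and the blank level of Tnfsf10, at under 50 reads a library.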
